A study of Hordeum vulgare with 18 samples.

Results

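The distal genes of barley chromosome 6H were followed in flag leaves of 2 lines, 10_11 and Karl, as the leaves aged. The genes are the identifiers that begin with HORVU6Hr1G and carry a serial number of 080000 or above, kept where their counts summed to at least 180 over all 18 libraries. This left 193 genes of the 304 such identifiers in the deposited table, of 1570 identifiers of chromosome 6H and of 13626 genes in all. The genes were chosen by this measured count sum, so their abundance is a description and was not tested. Just inside the limit lay HORVU6Hr1G083380 and HORVU6Hr1G083810, with 181 counts each, and just outside it lay HORVU6Hr1G080000, HORVU6Hr1G080830 and HORVU6Hr1G084080, with 179 counts each.

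RNA was taken from barley flag leaves of 10_11 at 7, 14 and 21 days post anthesis and of Karl at the same 3 ages, with 3 libraries for each line and day. Each library pooled at least 10 flag leaves from glasshouse plants, harvested by the tagged anthesis date of their shoot, and no other treatment separated the groups. Karl is a barley cultivar, and 10_11 is a near-isogenic line of it that differs in the region of a grain protein locus on chromosome 6, from background knowledge of the material. Because 10_11 is a single line, a line difference cannot be told apart from anything else in which this line differs from Karl.

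The flag leaf is the uppermost leaf of the shoot. After anthesis it supplies the growing grain, first by photosynthesis and later, during senescence, by breaking down its proteins and exporting the nitrogen. A near-isogenic line is made by repeated crossing to one parent, so that it shares most of its genome with that parent and carries segments of a donor around the selected locus and sometimes elsewhere. Genes near the ends of barley chromosomes lie densely and recombine often. In the identifier scheme, the number rises along the assembled chromosome, so the order of identifiers stands for the order of genes, and a rank from 1 (HORVU6Hr1G080050) to 193 (HORVU6Hr1G095380) is used below as position. The files pair no identifier with a gene name or function, so roles are not given, and the tissue label could not be checked against marker genes.

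Expression was measured by MARS-seq, which counts tags from the 3′ ends of transcripts, and levels are given as counts per 1000000 library counts (CPM), on library sizes scaled by TMM normalization. Libraries held between 353982 and 947762 counts at 7 d and between 1058777 and 3231258 counts at 14 d and 21 d, so low genes are known least precisely at 7 d. The 7 d libraries also carry another numbering than the later ones (1 to 3 against A to C), and age and this difference in depth and numbering cannot be told apart in the comparisons with 7 d. In bulk tissue, fewer cells of a type and less RNA per cell cannot be told apart. Calls below are edgeR quasi-likelihood tests over all 9973 genes that passed the filter on low counts, two-sided, at a Benjamini-Hochberg adjusted p under 0.05. All 193 end genes passed that filter.

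One library went against its label. Counts of edgeR calls in contrasts that include the 14 d libraries of 10_11 are given below with and without it. So are the averaged line differences of the called genes. Through the shared spread, this library also enters the tests of the other contrasts. Values for which no second value is printed, and the 14 d means of 10_11, include it. For each day, line-differing genes were taken from a fit to the remaining days alone, and each library was scored on those genes outside the 6H end so that Karl averages 0 and 10_11 averages 1. The library labelled 10_11 14 d C lay at 0.0670 on 69 such genes, while the other 10_11 libraries lay between 0.848 and 1.00 and the Karl libraries between -0.0610 and 0.226. On 7 end genes chosen in the same way it lay at 0.0010, against 0.877 and 1.03 for the other 10_11 libraries of 14 d and -0.0863 to 0.0356 for the Karl libraries of 14 d. Nothing in the labels says how this library came to stand there, and it is called the library labelled 10_11 14 d C throughout.

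The end genes spanned a wide range of abundance. Their mean level over all libraries ran from 6.24 to 18997 CPM, with a median of 34.1 CPM and quartiles of 14.4 and 84.6 CPM, against a median of 21.0 CPM over all genes tested. A single gene, HORVU6Hr1G085170, was the most abundant of the whole table. Summed over the 193 genes, the level was 45648 ± 3687, 31709 ± 1208 and 35165 ± 3981 CPM in 10_11 at 7, 14 and 21 d, against 44100.4 ± 4666, 30145 ± 1076 and 30902.5 ± 1118 CPM in Karl (SD, n = 3 each). Without that gene the sums were 17062 ± 396, 16690.3 ± 476 and 18893 ± 1217 CPM in 10_11, against 16894 ± 1744, 16863 ± 258 and 17284 ± 1059 CPM in Karl.

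The lines were compared at each day and averaged over the 3 days to ask where along the chromosome end they differ. Averaged over days, 8 end genes were called: 5 were higher and 3 were lower in 10_11 than in Karl. That is 4.15% of the end genes, against 1.29% of all genes tested, 3.76% of the other 6H genes over the same count limit and 0.891% of such genes on other chromosomes. With the library labelled 10_11 14 d C left out, these shares were 5.18%, 2.28%, 5.83% and 1.76%. The chromosome end was proposed for study with earlier line results of these data in view. The shares of line calls here and below are therefore a description, and no excess was tested. All 8 lay close together, between rank 163 (HORVU6Hr1G093190) and rank 190 (HORVU6Hr1G095230), with higher and lower genes interleaved along that stretch. In id order they were HORVU6Hr1G093190 (lower), HORVU6Hr1G093480 (higher), HORVU6Hr1G093840 (lower), HORVU6Hr1G094070 (higher), HORVU6Hr1G094170 (lower), HORVU6Hr1G094410 and HORVU6Hr1G094420 (both higher) and HORVU6Hr1G095230 (higher). This stretch is defined as running from the first to the last called gene. With all libraries, the 162 genes before rank 163 and the 3 after rank 190 therefore held no call. Without the library labelled 10_11 14 d C, 1 of the 162, HORVU6Hr1G084070, was called.

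**Figure D1:**
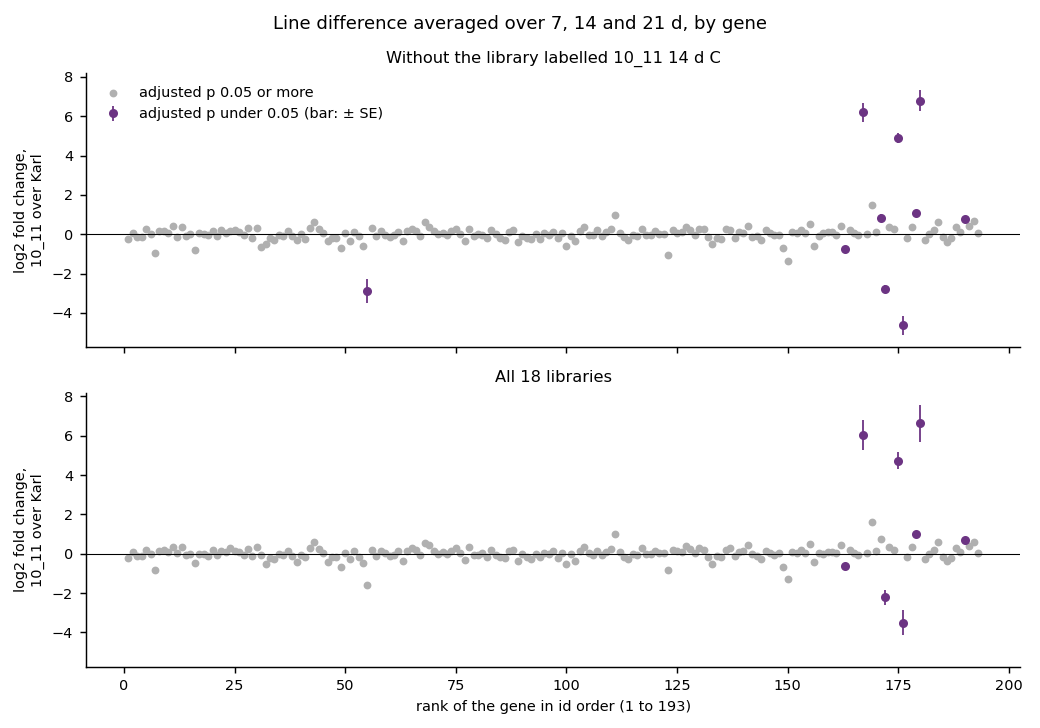
Line difference of each of the 193 end genes, as the log2 fold change of 10_11 over Karl averaged over 7, 14 and 21 d (vertical axis), against rank in id order (horizontal axis), without the library labelled 10_11 14 d C (top) and with all 18 libraries (bottom). Called genes are drawn with a bar of ± SE, and with all libraries the 8 called genes sit between ranks 163 and 190.

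Within the stretch from rank 163 to rank 190, called genes stood among genes that did not pass the test. Of its 28 genes, 20 were not called, and their averaged log2 fold changes ran from -0.37 to 1.61 with a median size of 0.188 and a median SE of 0.192. The one at 1.61, HORVU6Hr1G093520, had an adjusted p of 0.597 (edgeR) and varied widely between libraries of a group, with 0.879, 34.0 and 1.20 CPM in 10_11 and 3.13, 33.8 and 1.11 CPM in Karl at 21 d. Before the stretch the median size was 0.151 with a median SE of 0.178, so typical end genes outside the called ones differed between the lines by about as much as their error. With the library labelled C left out, the median sizes were 0.214 in the 20 genes and 0.164 before the stretch. An unadjusted p under 0.05 was reached by 15 of those 162 genes, against 12.1% of all genes tested.

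The 3 genes that were low or undetected in Karl had the widest line differences. HORVU6Hr1G093480 gave 20.2, 19.0 and 17.2 CPM in 10_11 at 7 d, against 0 in all 3 Karl libraries. In the 14 d libraries the levels were 22.6 and 14.6 CPM in 10_11 libraries A and B, with 0.787 CPM in the library labelled 10_11 14 d C, against 0, 0.451 and 1.94 CPM in Karl. At 21 d it gave 32.5, 19.4 and 37.3 CPM in 10_11, against 0.626, 0 and 0.554 CPM in Karl. The lines did not overlap at 7 d or 21 d, and at 14 d only the library labelled 10_11 14 d C lay within the Karl values. The averaged log2 fold change was 6.04 ± 0.76 (SE; edgeR adjusted p = 0.000248), and 6.20 without that library (edgeR adjusted p = 3.2e-07). With Karl at 0 counts at 7 d, the level in 10_11 was at least 12.2-fold higher there, with a floor of 3 counts over the Karl group. At 21 d the pooled ratio was 94.3, with a 95% exact binomial interval of 25.5 to 787 that covers counting error only. It was called at 21 d (log2 fold change 6.19 ± 1.01, SE; edgeR adjusted p = 0.00815), a call that was lost without Karl 21 d B (edgeR adjusted p = 0.0701).

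HORVU6Hr1G094420 was the other gene near 0 in Karl. It gave 38.3, 24.1 and 13.7 CPM in 10_11 at 7 d, against 0, 1.85 and 1.55 CPM in Karl. The 14 d levels were 13.6 and 23.8 CPM in 10_11 libraries A and B, with 0 in the library labelled 10_11 14 d C, against 0 in all 3 Karl libraries, and at 21 d 27.2, 9.71 and 30.7 CPM in 10_11, against 0 in all 3 Karl libraries. Every 10_11 library except the one labelled 14 d C lay above every Karl library. The averaged log2 fold change was 6.62 ± 0.93 (SE; edgeR adjusted p = 0.00138), and 6.78 without that library (edgeR adjusted p = 2.11e-06). Against the floor of 3 counts over the Karl group, the level in 10_11 was at least 22.7-fold higher at 14 d, or at least 33.9-fold without the library labelled C, and at least 48.0-fold higher at 21 d. At 7 d, with 2 Karl counts, the pooled ratio was 25.6 with an interval of 6.67 to 219. It was called at 21 d (edgeR adjusted p = 0.0290), and kept that call in 16 of 22 alternatives.

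HORVU6Hr1G094070 was the end gene called between the lines on every day. It gave 80.7, 84.9 and 51.5 CPM in 10_11 at 7 d, against 0, 1.85 and 1.55 CPM in Karl. At 14 d it gave 78.6 and 116 CPM in 10_11 libraries A and B, with 10.6 CPM in the library labelled 10_11 14 d C, against 6.51, 2.26 and 7.11 CPM in Karl. At 21 d it gave 159.9, 305 and 193 CPM in 10_11, against 7.51, 11.9 and 9.42 CPM in Karl. The lines did not overlap on any day, and the library labelled C lay closer to the Karl values than to its own group. The averaged log2 fold change was 4.74 ± 0.43 (SE; edgeR adjusted p = 1.52e-05), and 4.91 without that library (edgeR adjusted p = 6.23e-10). By day the log2 fold changes were 6.04 at 7 d (edgeR adjusted p = 0.0296), 3.70 at 14 d (edgeR adjusted p = 0.0327) and 4.48 at 21 d (edgeR adjusted p = 0.00133). At 7 d, with 2 Karl counts, the pooled ratio was 74.5 with an interval of 20.2 to 622. Of 23 alternatives, the call was kept in 15 at 7 d, 8 at 14 d and 23 at 21 d. The gene also rose with age in 10_11, by 1.57 on the log2 scale at 21 d over 7 d (edgeR adjusted p = 0.0352), while in Karl the value was 3.13 (edgeR adjusted p = 0.0809). That Karl value rests on the same 2 counts at 7 d.

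A pair of genes was lower in 10_11 by severalfold. HORVU6Hr1G093840 gave 8.07, 7.60 and 0 CPM in 10_11 at 7 d, against 35.3, 36.9 and 38.7 CPM in Karl. In the 14 d libraries the levels were 7.23 and 3.78 CPM in 10_11 libraries A and B, with 47.2 CPM in the library labelled 10_11 14 d C, against 53.5, 49.2 and 45.2 CPM in Karl. At 21 d it gave 9.67, 7.28 and 7.82 CPM in 10_11, against 54.4, 55.0 and 55.4 CPM in Karl. The library labelled C lay among the Karl values of 14 d, and no other 10_11 library reached any Karl library. The averaged log2 fold change was -2.21 ± 0.38 (SE; edgeR adjusted p = 0.00352), and -2.79 without that library (edgeR adjusted p = 3.5e-08). The call at 21 d, at -2.73 (edgeR adjusted p = 0.0368), was lost in 12 of 23 alternatives.

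HORVU6Hr1G094170 was sparse in both lines. It gave 0, 0 and 3.43 CPM in 10_11 at 7 d, against 16.3, 5.54 and 13.9 CPM in Karl. The 14 d levels were 0.301 and 0 CPM in 10_11 libraries A and B, with 7.87 CPM in the library labelled 10_11 14 d C, against 12.6, 9.02 and 11.0 CPM in Karl, and at 21 d 0, 1.62 and 0 CPM in 10_11, against 12.5, 11.9 and 14.4 CPM in Karl. No 10_11 library reached a Karl library of its day. The averaged log2 fold change was -3.50 ± 0.65 (SE; edgeR adjusted p = 0.00656), and -4.62 without the library labelled C (edgeR adjusted p = 5.72e-06). The 10_11 group held 1 count at 7 d and 2 counts at 21 d, and the pooled ratios of Karl over 10_11, which run against the other fold changes here, were 19.7 (interval 3.21 to 808) and 25.8 (interval 6.90 to 216).

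The remaining 3 called genes were expressed in both lines, with averaged log2 fold changes of smaller size than the 5 above. HORVU6Hr1G094410, which is next in the order to HORVU6Hr1G094420, gave 107, 87.4 and 103 CPM in 10_11 at 7 d, against 29.8, 40.6 and 65.1 CPM in Karl. At 14 d it gave 73.8, 109 and, in the library labelled C, 43.3 CPM in 10_11, against 34.9, 44.2 and 30.4 CPM in Karl, and at 21 d 89.6, 82.5 and 60.2 CPM in 10_11, against 37.5, 47.8 and 46.0 CPM in Karl. The lines overlapped only through the library labelled C, and the averaged log2 fold change was 0.99 ± 0.18 (SE; edgeR adjusted p = 0.00616), and 1.08 without that library (edgeR adjusted p = 0.000404). HORVU6Hr1G095230 gave 70.6, 63.4 and 96.1 CPM in 10_11 at 7 d, against 33.9, 38.8 and 37.2 CPM in Karl. In the 14 d libraries the levels were 66.0, 67.5 and, in the library labelled C, 37.0 CPM in 10_11, against 38.1, 32.0 and 44.0 CPM in Karl, and at 21 d 55.4, 72.8 and 70.4 CPM in 10_11, against 45.7, 47.4 and 45.4 CPM in Karl. Again the library labelled C was the one 10_11 library within the Karl values of its day, and the averaged log2 fold change was 0.71 ± 0.14 (SE; edgeR adjusted p = 0.0119), and 0.79 without it (edgeR adjusted p = 0.00082).

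HORVU6Hr1G093190, the first of the 8 in id order, was the least stable call. It gave 38.3, 38.0 and 27.5 CPM in 10_11 at 7 d, against 69.2, 66.5 and 55.8 CPM in Karl. The 14 d levels were 45.5, 40.0 and, in the library labelled C, 79.5 CPM in 10_11, against 86.5, 81.2 and 98.2 CPM in Karl, and at 21 d 73.8, 90.6 and 51.8 CPM in 10_11, against 85.1, 96.6 and 97.0 CPM in Karl. The lines overlapped at 21 d. The averaged log2 fold change was -0.63 ± 0.15 (SE; edgeR adjusted p = 0.0443), and -0.76 without the library labelled C (edgeR adjusted p = 0.00287). The call was lost in 19 of 23 alternatives, with adjusted p between 0.0518 and 0.410 in those.

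**Figure D2:**
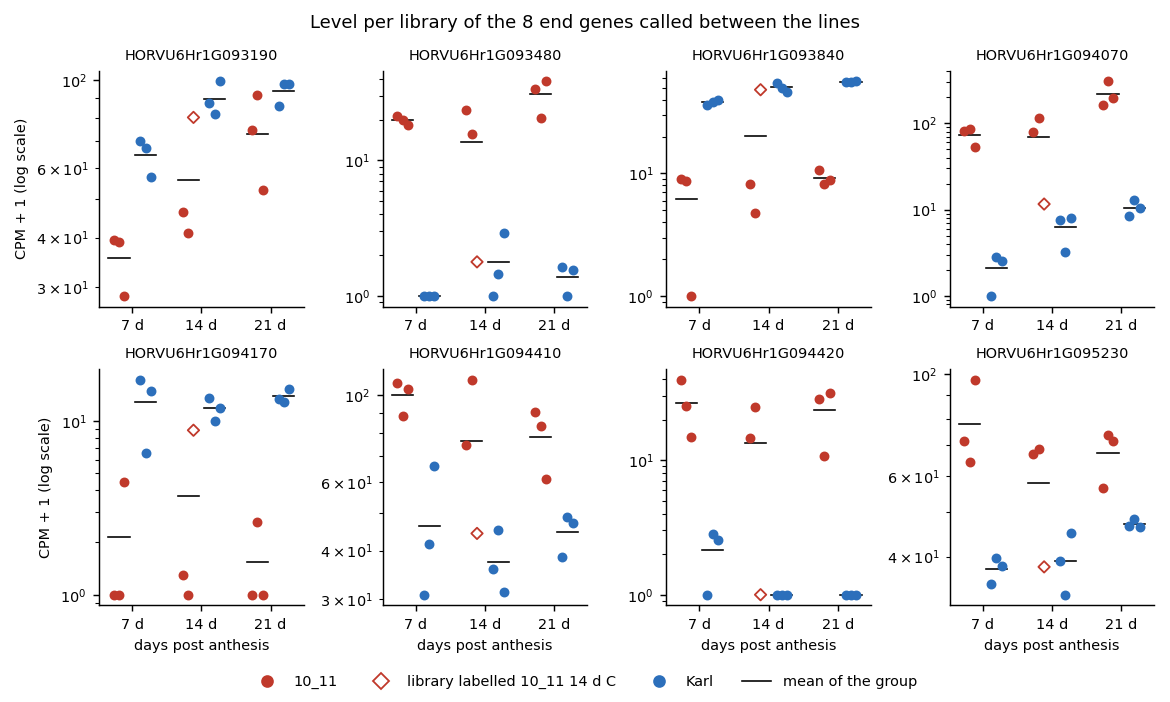
Level of the 8 end genes called between the lines, as CPM + 1 on a log axis, in each 10_11 library and each Karl library at 7, 14 and 21 days post anthesis, with the group mean as a line. The open diamond is the library labelled 10_11 14 d C, which in HORVU6Hr1G093840 lies at 47.2 CPM, among the Karl libraries of that day.

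By day, few end genes passed the test, and the count depended on the library labelled 10_11 14 d C. At 7 d 1 gene was called, 0.518% against 0.0602% of all genes tested, and at 14 d 1 gene, 0.518% against 0.0501%. In both cases this was HORVU6Hr1G094070, higher in 10_11. At 21 d 3 genes were higher (HORVU6Hr1G093480, HORVU6Hr1G094070 and HORVU6Hr1G094420) and 1 was lower (HORVU6Hr1G093840) in 10_11, 2.07% against 1.01%. Without that library the calls were 3 higher and 1 lower at 7 d (2.07% against 0.414%), 5 higher and 5 lower at 14 d (5.18% against 3.0%), and 3 higher and 2 lower at 21 d (2.59% against 1.42%). Averaged over days, 6 were then higher and 4 lower (5.18% against 2.28%), and all 8 genes called with every library were among these 10.

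The 2 further genes called without that library lay on both sides of rank 163. HORVU6Hr1G093680, at rank 171, gave 66.6, 84.9 and 68.7 CPM in 10_11 at 7 d, against 21.7, 25.9 and 48.0 CPM in Karl. At 14 d it gave 39.5 and 70.8 CPM in 10_11 libraries A and B, with 22.8 CPM in the library labelled C, against 25.6, 29.8 and 19.4 CPM in Karl, and at 21 d 21.1, 37.2 and 31.3 CPM in 10_11, against 21.3, 26.2 and 32.7 CPM in Karl. The lines were apart at 7 d and overlapped at 21 d. Its averaged log2 fold change was 0.73 (edgeR adjusted p = 0.122) with all libraries and 0.83 (edgeR adjusted p = 0.0209) without the library labelled C. At 21 d over 7 d it fell in 10_11 by 1.30 on the log2 scale (edgeR adjusted p = 0.0130), with a value of -0.25 in Karl (edgeR adjusted p = 0.699).

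The other, HORVU6Hr1G084070 at rank 55, lies far from the stretch and moved with both line and age. At 7 d it gave 0, 3.80 and 3.43 CPM in 10_11, against 8.14, 3.69 and 9.30 CPM in Karl. In the 14 d libraries the levels were 13.6 and 4.32 CPM in 10_11 libraries A and B, with 406 CPM in the library labelled 10_11 14 d C, against 1281, 444 and 552 CPM in Karl. At 21 d it gave 65.9, 193 and 34.9 CPM in 10_11, against 111, 336 and 67.6 CPM in Karl. The 14 d level of Karl thus stood above that of every other group, and the library labelled C came close to it. The line difference at 14 d was -2.42 on the log2 scale (edgeR adjusted p = 0.291) with all libraries and -6.31 ± 0.90 (SE; edgeR adjusted p = 0.000654) without that library. HORVU6Hr1G090560, at rank 123, was likewise called at 14 d only without that library, at -2.02 on the log2 scale (edgeR adjusted p = 0.0430), with 56.3 and 36.7 CPM in 10_11 libraries A and B, with 116 CPM in the library labelled C, against 238, 188 and 143 CPM in Karl.

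Genes whose libraries did not overlap between the lines were counted beside the same counts over all genes tested. At 7 d 12 end genes lay wholly higher and 6 wholly lower in 10_11, which is 9.33% against 9.2% of all genes tested. At 14 d these were 19 and 21 (20.7% against 21.1%), or 45 and 40 without the library labelled C (44.0% against 38.9%), and at 21 d 30 and 13 (22.3% against 18.6%). By direction, 15.5% of the end genes lay wholly higher and 6.74% wholly lower in 10_11 at 21 d, against 9.8% and 8.83% of all genes tested. At 7 d these shares were 6.22% and 3.11%, against 4.48% and 4.72%. At 14 d they were 9.84% and 10.9%, against 9.69% and 11.4%, or 23.3% and 20.7% without the library labelled C, against 18.6% and 20.3%. No test was made of these shares. Of the 8 called genes, 8 did not overlap at 7 d, 3 at 14 d (8 without the library labelled C) and 7 at 21 d. These 8 were picked by the line test on the same libraries, so their separation follows in part from that choice and is no further support.

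The authors' deposited table gives its own line comparison per day, with the sign of its fold changes read from the counts as Karl over 10_11. In the authors' deposited table, 4 end genes were higher and 1 lower in 10_11 at 7 d, where 0.470% of all genes were called. At 14 d the authors' deposited table calls 4 higher and 0 lower (0.558% of all genes), and at 21 d 5 higher and 3 lower (2.01% of all genes). Of the 8 genes named above, it calls 5 at 7 d, 3 at 14 d and 5 at 21 d.

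Calls were then counted along the whole order. Cut into 7 bins of 2500 serial numbers, the first 5, from HORVU6Hr1G080050 to HORVU6Hr1G092480, held 31, 34, 25, 22 and 36 genes and 0 averaged calls, with median sizes of the log2 fold change of 0.127, 0.171, 0.162, 0.150 and 0.140. The sixth, from HORVU6Hr1G092560 to HORVU6Hr1G094660, held 36 genes with 4 higher and 3 lower calls and a median size of 0.232. The last, from HORVU6Hr1G095080 to HORVU6Hr1G095380, held 9 genes with 1 higher call and a median size of 0.271. Positive values were found for 26 of 36 and 6 of 9 genes in those last bins and for 17, 13, 13, 11 and 21 genes in the first 5. Leaving out the library labelled C, the first 5 bins held 0, 1, 0, 0 and 0 calls with median sizes of 0.155, 0.189, 0.173, 0.138 and 0.161, the sixth held 5 higher and 3 lower calls with a median size of 0.267, and the last held 1 higher call with a median size of 0.355. Genes next to each other in the order had averaged line differences of the same sign in 105 of 192 pairs (54.7%), against 51.6% on the rest of 6H and 50.8% on other chromosomes. Over all 193 genes the median averaged log2 fold change was 0.02, against -0.01 over all genes tested, and its median size was 0.162 against 0.186. Of the 192 pairs, 101 (52.6%) had the same sign without the library labelled C, where the median was 0.03 against -0.02, and its median size was 0.173 against 0.196.

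Age changes were compared within each line to see how the end genes moved as the leaves aged. From 7 d to 21 d, 27 end genes rose and 25 fell in 10_11, which is 26.9% of them against 29.0% of all genes tested. In Karl 20 rose and 21 fell, 21.2% against 21.2%. Both shares lie near those of the whole table. The rises had a median log2 fold change of 1.42 in 10_11 and 1.32 in Karl, and the falls a median of -1.34 in 10_11 and -1.06 in Karl. Called in both lines were 33 genes, of which 17 rose in both and 16 fell in both, which is 63.5% of the 52 called in 10_11 and 80.5% of the 41 called in Karl. Over all genes tested, 1564 were called in both, which is 54.0% of the 10_11 calls and 73.8% of the Karl calls.

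**Figure D3:**
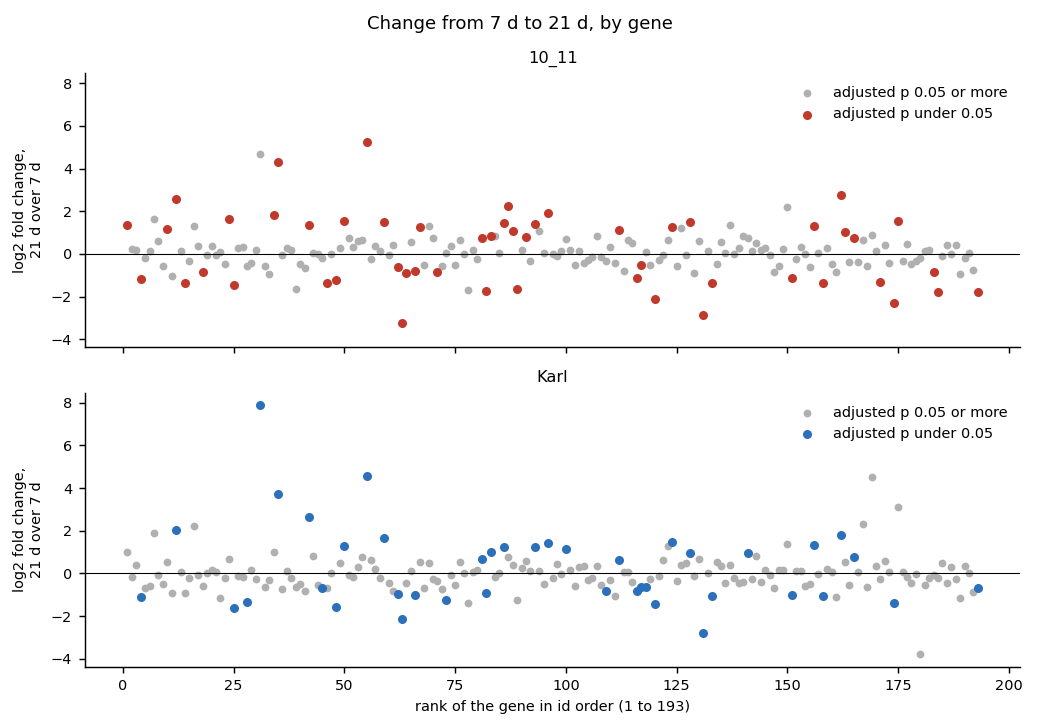
Change of each of the 193 end genes at 21 d over 7 d, as log2 fold change (vertical axis), against rank in id order (horizontal axis), in 10_11 (top) and Karl (bottom). Coloured points are called genes, 27 higher and 25 lower at 21 d in 10_11 and 20 higher and 21 lower in Karl, and they lie along the whole order.

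The steps between neighbouring days were compared in the same way, and the direct test between the lines follows them. In 10_11, 20 genes rose and 15 fell from 14 d to 21 d (18.1% against 19.9%), and 3 rose and 1 fell from 7 d to 14 d (2.07% against 2.43%). In Karl, 1 rose and 0 fell from 14 d to 21 d (0.518% against 0.973%), and 8 rose and 9 fell from 7 d to 14 d (8.81% against 10.6%). Without the library labelled 10_11 14 d C, the 10_11 counts were 17 and 14 from 14 d to 21 d (16.1% against 17.4%) and 1 and 0 from 7 d to 14 d (0.518% against 0.645%). The single gene left there was HORVU6Hr1G090700, named after its values were seen, which gave 73.2, 93.4 and, in the library labelled C, 66.9 CPM at 14 d, against 32.3, 24.1 and 6.87 CPM at 7 d (log2 fold change 1.77 ± 0.33, SE; edgeR adjusted p = 0.00903, and 1.87 with edgeR adjusted p = 0.0195 without that library). The single Karl gene from 14 d to 21 d, HORVU6Hr1G088160, also named after its values were seen, gave 263, 176 and 209 CPM at 21 d, against 113, 103 and 119.6 CPM at 14 d (log2 fold change 0.95 ± 0.22, SE; edgeR adjusted p = 0.0454).

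The difference between the lines in an age change was tested directly. With all libraries, no end gene passed that test with edgeR for 7 to 14 d, 14 to 21 d or 7 to 21 d (0.01%, 0.0% and 0.0% of all genes tested did). There 7, 16 and 12 end genes (3.63%, 8.29% and 6.22%) had an unadjusted p under 0.05, against 5.73%, 10.8% and 7.74% of all genes tested. Without the library labelled 10_11 14 d C, 1 end gene, HORVU6Hr1G084070, passed the edgeR test for 14 to 21 d, by 5.48 ± 1.01 on the log2 scale (SE; edgeR adjusted p = 0.0409). That is 0.518% of the end genes, against 0.0867% of all genes tested. No end gene passed for 7 to 14 d or 7 to 21 d in that fit. DESeq2, run as an alternative, called HORVU6Hr1G083050 (adjusted p = 0.0264) and HORVU6Hr1G095380 (adjusted p = 0.00624) for 14 to 21 d and HORVU6Hr1G095380 (adjusted p = 0.0206) for 7 to 21 d, and none for 7 to 14 d. DESeq2 gave an adjusted p to 94 of the end genes for 14 to 21 d, 66 for 7 to 21 d and 192 for 7 to 14 d. Its calls were thus 2 of 94, 1 of 66 and 0 of 192 end genes. Among all genes with an adjusted p they were 63 of 3583 (1.76%), 34 of 2265 (1.5%) and 3 of 13614 (0.022%).

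Of the rises shared by both lines, the 4 widest by the naming rule are given first. HORVU6Hr1G083050, at rank 35, averaged 60.5 ± 36.9, 121 ± 12.8 and 1126 ± 420 CPM in 10_11 at 7, 14 and 21 d, and 49.2 ± 19.2, 260.3 ± 97.8 and 635 ± 145 CPM in Karl (SD, n = 3 each). Every 21 d library of both lines, the lowest at 519.5 CPM in Karl, lay above every earlier one. At 21 d over 7 d the log2 fold change was 4.31 (edgeR adjusted p = 1.45e-06) in 10_11 and 3.71 (edgeR adjusted p = 1.3e-05) in Karl. The step from 14 d to 21 d was 3.22 in 10_11 and 1.29 in Karl, and the difference of the steps was 1.93 ± 0.50 (SE; edgeR adjusted p = 0.244). Leaving out the library labelled C, the step in 10_11 was 3.27 and the difference 1.98 ± 0.55 (SE; edgeR adjusted p = 0.152).

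HORVU6Hr1G081000, at rank 12, averaged 36.5 ± 2.02, 102 ± 59.1 and 219 ± 40.7 CPM in 10_11 at 7, 14 and 21 d, and 38.9 ± 16.8, 119 ± 34.8 and 162 ± 4.04 CPM in Karl. The 14 d values of 10_11 were 87.6 and 51.8 CPM in libraries A and B, with 167 CPM in the library labelled C. Its log2 fold change at 21 d over 7 d was 2.58 in 10_11 (edgeR adjusted p = 9.45e-05) and 2.04 in Karl (edgeR adjusted p = 0.000925). HORVU6Hr1G093180, which lies directly before the first line-called gene in the order, averaged 27.9 ± 14.5, 45.4 ± 7.95 and 174 ± 66.9 CPM in 10_11, and 22.4 ± 10.5, 47.1 ± 9.16 and 75.3 ± 19.7 CPM in Karl. It rose by 2.76 in 10_11 (edgeR adjusted p = 4.67e-05) and by 1.79 in Karl (edgeR adjusted p = 0.00274) on the log2 scale.

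HORVU6Hr1G084070, described above for its line difference, rose at 21 d over 7 d by 5.23 on the log2 scale in 10_11 (edgeR adjusted p = 0.0331) and by 4.56 in Karl (edgeR adjusted p = 0.0245). Both calls were lost without any 1 library of 7 d of that line or without its 21 d library B, with adjusted p between 0.0700 and 0.115. In Karl it was already up at 14 d over 7 d, by 6.70 (edgeR adjusted p = 0.00686). HORVU6Hr1G082360, at rank 31 and named after its values were seen, had the highest log2 fold change of all end genes at 21 d over 7 d in Karl, 7.88 (edgeR adjusted p = 0.0458). That call rests on 1 library, with 19.4, 397 and 2.22 CPM in Karl at 21 d, against 1.36, 0 and 0 CPM at 7 d. In 10_11 the same gene gave 1.76, 206 and 1.20 CPM at 21 d, against 2.02, 1.27 and 6.87 CPM at 7 d, and did not pass the test (edgeR adjusted p = 0.151). In both lines the high value came from the 21 d library B.

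Of the falls shared by both lines, the 4 widest are given here. HORVU6Hr1G084650, at rank 63, averaged 91.5 ± 39.5, 45.3 ± 7.77 and 10.2 ± 3.72 CPM in 10_11 at 7, 14 and 21 d, and 96.0 ± 33.2, 42.4 ± 12.7 and 21.6 ± 5.29 CPM in Karl. It fell by 3.25 on the log2 scale in 10_11 (edgeR adjusted p = 1.35e-05) and by 2.14 in Karl (edgeR adjusted p = 0.000395). HORVU6Hr1G091230, at rank 131, averaged 98.9 ± 49.8, 53.7 ± 24.4 and 13.1 ± 0.861 CPM in 10_11, and 98.8 ± 43.1, 33.7 ± 6.76 and 14.1 ± 0.325 CPM in Karl. Its 6 libraries of 21 d lay between 12.1 and 14.4 CPM, so both lines reached nearly the same level, with falls of 2.86 in 10_11 (edgeR adjusted p = 6.49e-05) and 2.79 in Karl (edgeR adjusted p = 0.000108).

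HORVU6Hr1G090250, at rank 120, averaged 196 ± 38.3, 117 ± 10.9 and 45.1 ± 2.13 CPM in 10_11 at 7, 14 and 21 d, and 161 ± 8.64, 81.2 ± 17.6 and 58.8 ± 12.3 CPM in Karl. At 21 d over 7 d its log2 fold change was -2.12 in 10_11 (edgeR adjusted p = 2.64e-06) and -1.45 in Karl (edgeR adjusted p = 0.000149). HORVU6Hr1G093940, at rank 174 and inside the stretch of line calls, averaged 326 ± 34.8, 207 ± 63.9 and 67.5 ± 34.9 CPM in 10_11, and 255 ± 58.5, 122 ± 20.1 and 98.7 ± 27.9 CPM in Karl. It fell by 2.28 in 10_11 (edgeR adjusted p = 6.36e-05) and by 1.37 in Karl (edgeR adjusted p = 0.00490), and its averaged line difference of 0.19 did not pass the test (edgeR adjusted p = 0.716).

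**Figure D4:**
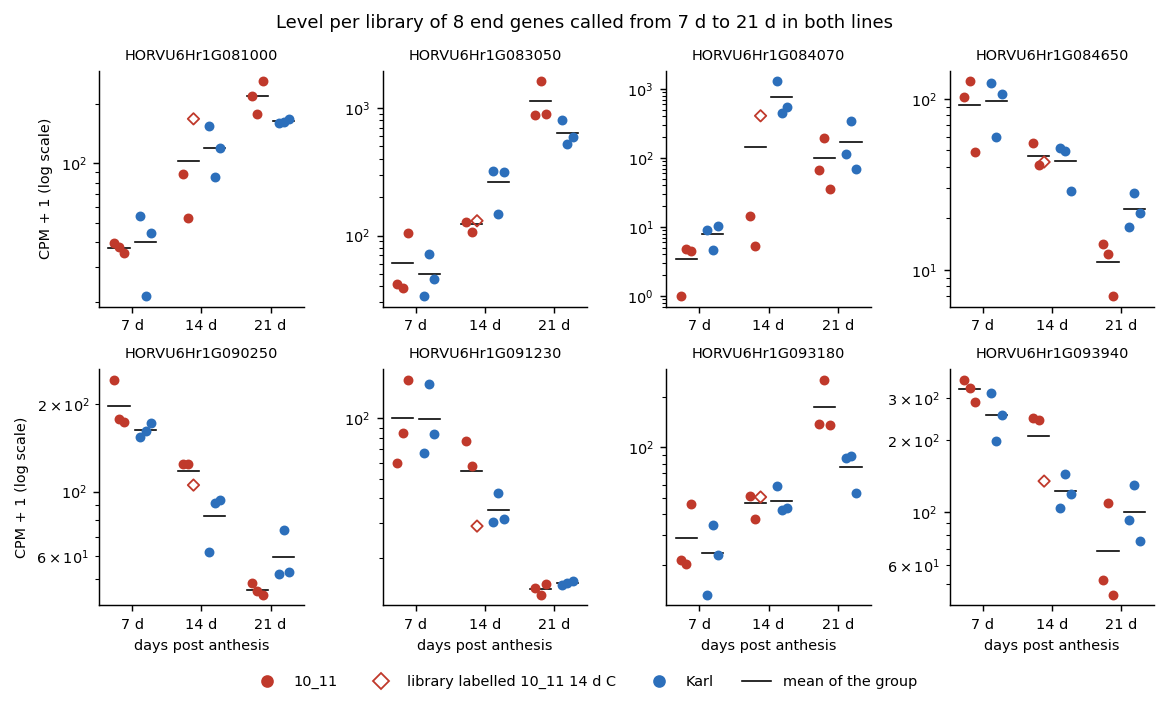
Level of 8 end genes called at 21 d over 7 d in both lines, as CPM + 1 on a log axis, in each 10_11 library and each Karl library at 7, 14 and 21 days post anthesis, with the group mean as a line and the library labelled 10_11 14 d C as an open diamond. HORVU6Hr1G083050 reaches 1126 ± 420 CPM in 10_11 and 635 ± 145 CPM in Karl at 21 d.

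Of the 5 most abundant end genes, 2 changed with age. HORVU6Hr1G085170, at rank 66, gave 31256, 24909 and 29592 CPM in 10_11 at 7 d, against 29355, 23847 and 28419 CPM in Karl. The 14 d values were 14019, 15873 and, for the library labelled C, 15163 CPM in 10_11, against 11873, 13942 and 14031 CPM in Karl. The 21 d values were 15748, 19261 and 13806 CPM in 10_11, against 13828, 13652 and 13377 CPM in Karl. All later libraries lay below all 7 d libraries. At 21 d over 7 d the gene fell by 0.81 on the log2 scale in 10_11 (edgeR adjusted p = 0.00253) and by 1.00 in Karl (edgeR adjusted p = 0.000903). HORVU6Hr1G090160 averaged 1550.1 ± 46.8, 1282 ± 214 and 1084.5 ± 1.98 CPM in 10_11 at 7, 14 and 21 d, and 1479 ± 195, 834 ± 147 and 944 ± 32.1 CPM in Karl. It fell at 21 d over 7 d by 0.52 in 10_11 (edgeR adjusted p = 0.0374) and by 0.65 in Karl (edgeR adjusted p = 0.0145).

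The other 3 abundant genes passed no test between days or lines. HORVU6Hr1G087720 averaged 1723 ± 145, 1285.5 ± 149 and 1352 ± 563 CPM in 10_11 at 7, 14 and 21 d, and 1659 ± 444, 1665 ± 139 and 1791 ± 298 CPM in Karl. HORVU6Hr1G089600 averaged 1038 ± 232, 1174 ± 55.9 and 1284 ± 243 CPM in 10_11, and 980.4 ± 194, 1170 ± 241 and 784 ± 286 CPM in Karl. HORVU6Hr1G092430 averaged 705 ± 107, 844 ± 127 and 673 ± 241 CPM in 10_11, and 775 ± 167, 658 ± 115 and 729.7 ± 43.1 CPM in Karl.

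The genes at the 2 ends of the order moved in opposite directions with age in 10_11. HORVU6Hr1G080050, the first, averaged 11.7 ± 1.84, 18.6 ± 2.50 and 29.9 ± 3.51 CPM in 10_11 at 7, 14 and 21 d, and 12.9 ± 6.71, 27.1 ± 11.0 and 26.2 ± 4.05 CPM in Karl. It rose by 1.37 on the log2 scale at 21 d over 7 d in 10_11 (edgeR adjusted p = 0.0125), and the value in Karl was 0.98 (edgeR adjusted p = 0.0552). HORVU6Hr1G095380, the last, averaged 291 ± 29.5, 240 ± 48.8 and 83.5 ± 16.3 CPM in 10_11, and 224 ± 8.31, 175 ± 18.8 and 142 ± 19.7 CPM in Karl. It fell by 1.80 in 10_11 (edgeR adjusted p = 7.07e-06) and by 0.66 in Karl (edgeR adjusted p = 0.0242). The 10_11 values at 21 d, 97.5, 87.4 and 65.6 CPM, all lay below the Karl values of 133, 164 and 127 CPM, while at 7 d the 10_11 values of 313, 257 and 302 CPM all lay above the Karl values of 233, 218 and 220.1 CPM. The difference between the lines in the fall from 14 d to 21 d was -1.22 ± 0.28 (SE; edgeR adjusted p = 0.205), and -1.38 ± 0.28 without the library labelled C (SE; edgeR adjusted p = 0.0636).

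Age calls were spread along the order. In the 7 bins of 2500 serial numbers, 4, 6, 6, 4, 2, 5 and 0 genes rose and 4, 5, 4, 0, 5, 6 and 1 fell in 10_11 at 21 d over 7 d. In Karl 2, 5, 3, 4, 3, 3 and 0 rose and 3, 4, 3, 1, 6, 3 and 1 fell. Neighbouring genes changed in the same direction in 81 of 192 pairs in 10_11 (42.2%) and 89 of 192 in Karl (46.4%), counting the sign of every gene whether called or not, against 49.9% and 50.1% on the rest of 6H. Median log2 fold changes at 21 d over 7 d were 0.03 in 10_11 and -0.06 in Karl, against 0.04 and 0.01 over all genes tested.

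Line calls and age calls were set side by side. Of the 8 line-called genes, 2 were called at 21 d over 7 d in 10_11 and 0 in Karl. Over all genes tested, 29.0% were called in 10_11 and 21.2% in Karl, and no difference from these shares was tested. Any age contrast in either line called 67 end genes (34.7%, against 39.5% of all genes tested) and left 126, and 120 (62.2%, against 59.7%) passed neither an age test nor the averaged line test. Without the library labelled 10_11 14 d C, 64 end genes (33.2%, against 37.5%) were called in any age contrast and 123 (63.7%, against 61.4%) passed neither. Of the 111 identifiers under the count limit, 28 passed the filter and 1 (3.57%, against 1.88% of all tested genes under the limit) was called between the lines, HORVU6Hr1G086830, with 160 counts in all and an averaged log2 fold change of 1.21 (edgeR adjusted p = 0.0437). Without the library labelled C, 36 passed the filter and 2 (5.56%, against 2.76%) were called, HORVU6Hr1G086830 at 1.19 (edgeR adjusted p = 0.0499) and HORVU6Hr1G095000, with 118 counts, at 1.53 (edgeR adjusted p = 0.0209).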

How the data were processed

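The authors deposited 1 table of 13626 genes with whole-number raw counts per gene and library, per the file headers, and this is the unit tested here. The tools named in the submitters' processing notes are STAR 2.4.2a, HTSeq, cutadapt, bcl2fastq and DESeq2. Which genome build and annotation were used, and whether tags were collapsed by molecular identifier, is not given in the sources used here, so counts may include amplification copies and intervals cover counting error only. The deposited table also holds the authors' own log2 fold changes and adjusted p-values per comparison, per the file headers, and those between lines were read for comparison only. Its 36 per-sample columns of normalized and regularized values were not used.

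Groups come from the sample titles. One edgeR 4.0.16 quasi-likelihood model (R 4.3.3, filterByExpr, TMM) with a mean for each line and day was fitted to all 18 libraries and 9973 genes, with 12 residual degrees of freedom, and p-values were adjusted over all genes tested. SE is the fold change divided by the root of the F statistic. CPM use TMM-scaled library sizes. The labels call the samples independent but not which plants they share, so p-values measure the spread between pooled samples.

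Alternatives were DESeq2 1.42.0, edgeR with DESeq2 size factors, no count filter, a replicate block, counts thinned to the total of the smallest library and each of the 18 libraries left out in turn, 23 in all. The members and lists were chosen with earlier results of these data known, line results among them. Genes were named by rule: line calls, the 4 widest shared age changes in each direction with at least 20 CPM, the 5 most abundant, the first and last identifier, and those beside the limit. Of the identifiers, 0 matched the RefSeq gene table, so no sequences are shown. Near-identical gene copies could share reads, which leaves single members of such families uncertain.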

Additional observations from a re-analysis of the deposited data

Results flagged for a closer look

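One result stood out because the change with age differed between the lines. Without the library labelled 10_11 14 d C, the change of HORVU6Hr1G084070 from 14 d to 21 d differed between 10_11 and Karl by 5.48 ± 1.01 on the log2 scale (SE; edgeR adjusted p = 0.0409). It was the 1 end gene that passed (0.518%), against 0.0867% of all genes tested. With all libraries, including the 406 CPM of the library labelled C, the same difference did not pass the test. The levels behind it at 21 d were 65.9, 193 and 34.9 CPM in 10_11, against 111, 336 and 67.6 CPM in Karl, and at 14 d 13.6 and 4.32 CPM in 10_11 libraries A and B, against 1281, 444 and 552 CPM in Karl. The part of that library's labelling in this difference was not tested.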

How the results depend on the processing

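With groups of 3, single-day line calls and 2 of the age steps are the least certain. With 1 library left out, line calls at 7, 14 and 21 d moved by more than 1.5-fold in 8, 15 and 5 of 18 fits. Calls in 10_11 from 7 d to 14 d did so in 11, and those in Karl from 14 d to 21 d in 14. No other comparison moved in more than 3. Line calls at 7 d (1 gene) were 2 with DESeq2 and 0 with the replicate block, those at 14 d (1) were 4 with DESeq2 and 0 thinned or with the replicate block, and those at 21 d (4) were 8 with DESeq2, 1 thinned and 2 with the replicate block. With DESeq2, 0.235%, 0.927% and 2.87% of the genes to which it gave an adjusted p were called on these days. At 21 d, 0.76% of all genes tested were called thinned and 0.521% with the replicate block. The counts of 0 at 7 d and 14 d came where 0.0% of all genes tested were called. Averaged line calls (8) were 3 thinned, where 130 of the 193 genes were still tested and 1.15% of all genes tested were called. Calls in 10_11 from 7 d to 14 d (4) were 8 with DESeq2 (4.14% of all genes with an adjusted p). They were 2 with no filter (1.38%), 2 thinned (3.15%) and 2 with the block (1.56%). Those in Karl from 14 d to 21 d (1) were 6 with DESeq2 (3.38%). They were 0 with no filter (0.44%), thinned (0.611%) or with the block (0.411%). Line differences in the age change were 2 with DESeq2 for 14 to 21 d and 1 for 7 to 21 d, against 0 with edgeR. The cause was not tested. Leaving out 1 library gave 0 to 4, 0 to 10 and 1 to 5 line calls at 7, 14 and 21 d and 7 to 11 averaged. For 7 to 14 d, 14 to 21 d and 7 to 21 d it gave 1 to 6, 18 to 38 and 36 to 54 age calls in 10_11, 9 to 21, 0 to 3 and 29 to 49 in Karl, and 0 to 0, 0 to 1 and 0 to 0 line differences in the age change. The 10 line calls at 14 d came without the library labelled 10_11 14 d C (3.0% of all genes tested, against 0.0501%). That fit also gave the 4 at 7 d (0.414% against 0.0602%). The 1 in 10_11 from 7 d to 14 d came without that library (0.645% against 2.43%). It also came without 10_11 7 d 1 (0.524%) or without 10_11 7 d 2 (0.448%). The 18 came without 10_11 14 d A (10.9% against 19.9%) and the 9 without Karl 14 d C (4.53% against 10.6%). The 1 at 21 d came without Karl 21 d B (0.125% against 1.01%). The 36 came without 10_11 7 d 2 (19.2% against 29.0%) and the 29 without Karl 21 d A (13.8% against 21.2%). In these fits the share of all genes tested moved in the same direction as the count of end genes. No result reversed. Of the single genes, 505 values stayed on their side of the threshold and 28 did not, 19 of them of HORVU6Hr1G093190, 8 of HORVU6Hr1G084070 and 1 of HORVU6Hr1G095230 (thinned, adjusted p = 0.164). Same-labelled libraries did not meet the rule for pairing, a correlation of deviations over 0.1 in every pair: it ran from -0.381 to 0.327 over 21 pairs. Between the lines at 21 d it was -0.159 for A, 0.307 for B and 0.327 for C. On another scale, log2 of CPM + 1, the own-letter values there ran from -0.155 to 0.324. On that scale 4 of those 6 libraries correlated best with their own letter. The 7 d libraries share no label with the later ones, so no paired analysis was possible because of that for changes from 7 d. The replicate block kept 1 to 3 and A to C as separate sets, so it paired no 7 d library with a later one.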

Other observations

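The libraries labelled B of 21 d stood high together in both lines for a small set of genes. After the values of HORVU6Hr1G082360 had been seen, genes were counted that reached at least 10 CPM and at least 2 times both other libraries of the group in the same-lettered library of both lines. Among all genes tested this held for 69 genes in the libraries B of 21 d, which is 0.692%, against 2 for A and 0 for C at 21 d and 5, 5 and 2 for A, B and C at 14 d. The end genes held 3 of these: HORVU6Hr1G082360, HORVU6Hr1G084070 and HORVU6Hr1G093520, which is 1.55% of them. HORVU6Hr1G093520 gave 34.0 CPM in 10_11 and 33.8 CPM in Karl in the libraries B, against at most 3.13 CPM in the other 21 d libraries. The labels do not say what the letter stands for.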
